A study of Mus musculus with 24 samples.

Results

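The 10 genes described here encode channels, transporters and accessory proteins through which magnesium enters, leaves or is moved within a cell: Trpm7, Trpm6, Mrs2, Slc41a1, Magt1, Tusc3, Mmgt1, Nipa1, Nipa2 and Zdhhc17. They were picked by gene symbol for this role from the 53465 genes in the expression table. All 10 were among the 15493 genes tested, which are those that reached 5 normalized reads in 6 mice or more of at least 1 genotype. RNA was sequenced from endothelial cells, the cells that line blood vessels, isolated from the brains of single mice, labelled as of strain C57BL/6J, by fluorescence-activated sorting for CD31. Every mouse carried floxed alleles of the clock gene Bmal1. The 12 control mice were Bmal1fl/fl without Cre, and the 12 mutant mice were Bmal1fl/fl; Tie2cre, in which Cre is driven by the Tie2 promoter. That promoter is active in endothelial cells and also in blood cell lineages. Mice of both sexes were used in the study, and ages were not given in the sources used here. The animals lived in a light-dark cycle of 12 h each, and brains were taken from 2 mice of each genotype at 6 times of day (zeitgeber time, hours after lights on): ZT2, ZT6 and ZT10 in the light, and ZT14, ZT18 and ZT22 in the dark.

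Magnesium binds ATP, and most enzymes that use ATP, among them the ABC transporters that pump drugs out of the brain endothelium, need the MgATP complex. Cells take magnesium up mainly through channels of the TRPM family at the plasma membrane, move it into mitochondria through MRS2, and release it through sodium-coupled exchangers. In the clock of mammalian cells, BMAL1 and CLOCK bind as a dimer to the E-box sequence CACGTG, and the study asked whether magnesium handling in the brain endothelium depends on this clock.

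The promoters of the members that hold this E-box are shown because mice with and without Bmal1 are compared below. RefSeq promoters (build GRCm38.p6) of 250 bases before and 50 bases after the transcription start were at hand for 7 members in 8 entries (Zdhhc17 has a pair). CACGTG, which reads the same on both strands, occurred in those of Trpm7, Magt1 and Nipa2. It occurred in 7.15% of all 32851 promoters of this length, and 0.594% held 2 or more. Each sequence runs 5′ to 3′ on the gene's own (minus) strand, from 250 bases before to 30 bases after the start, with the E-box in capitals.
Trpm7, chr2:126876232-126876511: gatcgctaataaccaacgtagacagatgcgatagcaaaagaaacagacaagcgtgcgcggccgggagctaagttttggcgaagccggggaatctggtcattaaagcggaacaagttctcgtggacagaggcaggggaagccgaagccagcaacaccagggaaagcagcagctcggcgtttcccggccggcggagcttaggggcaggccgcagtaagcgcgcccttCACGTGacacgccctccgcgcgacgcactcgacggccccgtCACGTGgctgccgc
Magt1, chrX:106011773-106012052: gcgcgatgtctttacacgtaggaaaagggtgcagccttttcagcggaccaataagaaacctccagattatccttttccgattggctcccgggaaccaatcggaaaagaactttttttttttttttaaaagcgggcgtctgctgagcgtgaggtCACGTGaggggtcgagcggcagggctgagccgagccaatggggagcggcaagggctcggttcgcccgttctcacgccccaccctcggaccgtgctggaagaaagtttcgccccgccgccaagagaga
Nipa2, chr7:55962464-55962743: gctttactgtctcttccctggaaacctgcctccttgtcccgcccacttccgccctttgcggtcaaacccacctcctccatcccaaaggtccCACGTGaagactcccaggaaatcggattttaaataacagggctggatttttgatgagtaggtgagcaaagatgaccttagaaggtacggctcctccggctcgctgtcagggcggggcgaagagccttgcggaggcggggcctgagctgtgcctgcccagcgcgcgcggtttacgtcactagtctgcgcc
In Trpm7 the E-boxes began 25 bases before and 16 bases after the start. In Magt1 the E-box began 97 bases before it, and in Nipa2 159 bases before it. The entries of Trpm6, Slc41a1, Nipa1 and Zdhhc17 did not hold these letters in this window, which says nothing of other E-box forms or of sites elsewhere in the genes. The match is a description of the sequence, and binding was not measured in these libraries.

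Totals lay between 6136404 and 6648311 normalized reads in the 24 libraries, after the authors' normalization had brought them together, so differences in original depth are lost. The 8 libraries of ZT6 and ZT18 stood apart from the other 16 in both genotypes. Their summed reads of 7 microglial markers lay between 679 and 1263, against 7667 to 20880 in the others, and those of 12 endothelial markers between 134815 and 142883, against 92497 to 126613. Reads from mitochondrial genes made up 2.68% to 3.90% of the total there and 5.78% to 17.4% elsewhere. All 8 have neighbouring sample numbers in the labels, in 1 unbroken run with those of most other libraries, and their times of day and anything else these 8 share cannot be told apart. The numbers of 3 libraries, replicate 1 of the ZT2 controls and both ZT14 mutants, lie away from this run, so that at ZT14 genotype and number cannot be told apart. All 12 endothelial markers, Pecam1 (CD31) among them, were detected in every library. The labels also give 2 i5 index sequences, which were the same for both genotypes at ZT6, ZT14, ZT18 and ZT22 and differed between them at ZT2 and ZT10. In mutants, 1 index was carried by the ZT6 and ZT18 libraries and the other by all the rest. In controls, the ZT2 and ZT10 libraries shared the index of ZT6 and ZT18. Bmal1, listed as Arntl, ranged from a mean of 11.5 reads at ZT10 to 452.5 at ZT2 in controls and from 144.5 at ZT10 to 302.5 at ZT14 in mutants; its total over the gene does not separate intact from recombined transcripts and is no direct check of the deletion.

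The first question was which of these genes the brain endothelium expresses most. Trpm7, a channel fused to a kinase that conducts magnesium and calcium into most cell types, had the highest level of the 10 in both genotypes, and its relative Trpm6, known for magnesium uptake in kidney and gut, was among the 3 lowest per length. Mrs2, the magnesium channel of the inner mitochondrial membrane, came second. The level per length is given as normalized reads per kb of annotated exon, since longer transcripts give more reads.

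Trpm7 (GRCm38 chromosome 2, 126791565 to 126876230) had 86.2 reads per kb in controls and 82.0 in mutants. Mrs2 (chromosome 13, 24987483 to 25020379) had 61.5 and 63.4. In controls there followed Slc41a1 with 46.1, Magt1 with 46.0, Zdhhc17 with 42.7, Mmgt1 with 37.9, Tusc3 with 36.5, Nipa1 with 26.0, Trpm6 with 21.5 and Nipa2 with 15.8 reads per kb. Neighbours in this order were compared within each mouse by an exact sign-flip permutation test (two-sided, n = 12 mice per genotype), with p-values adjusted over the 18 neighbour pairs of both genotypes. Trpm7 was above Mrs2 in 12 of 12 controls and 11 of 12 mutants, with mean log2 ratios of 0.50 (SD 0.43) and 0.38 (SD 0.27) and an adjusted p of 0.00879 in each by this exact test. Mrs2 was above Slc41a1 in 10 of 12 controls (mean log2 ratio 0.41, SD 0.34, adjusted exact p = 0.0205). The other 15 neighbour pairs did not pass, with adjusted p from 0.0901 to 0.939, so the order from Slc41a1 to Nipa2 in controls and from Mrs2 to Nipa2 in mutants is not fixed between neighbours. With the longest transcript in place of all exons, Trpm7 remained above Mrs2 in both genotypes, Mrs2 no longer passed above its neighbour in controls, and Trpm6 passed above Nipa1 in mutants, which leaves Nipa1 the lowest there.

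**Figure D1:**
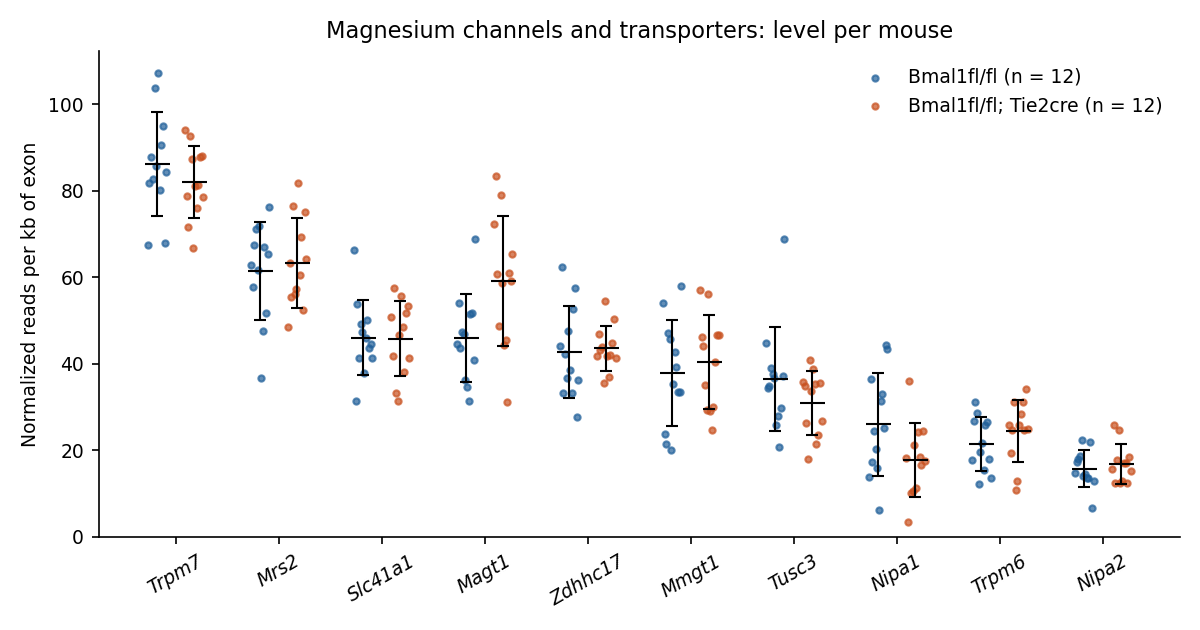
Normalized reads per kb of exon for each of the 10 genes (vertical axis), in 12 control and 12 mutant mice; each point is a mouse, horizontal bars are means and error bars SD. Trpm7 has the highest mean in both genotypes (86.2 and 82.0) and the distributions from Slc41a1 rightward overlap from gene to gene.

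The members also differed in how much mice varied. Trpm7 was the steadiest, with a coefficient of variation of 14.0% over the 12 controls and 10.1% over the 12 mutants, and lay between 755 and 1213 reads in all 24 libraries. Nipa1, a magnesium transporter of early endosomes and the cell surface, was the most variable, with 46.0% and 48.0% and a range from 11 to 141 reads. Counting error alone would give about 3.24% for Trpm7 and 12.0% for Nipa1 at their mean normalized reads. Between mice of the same genotype and time point, the SD of log2(reads + 1) was 0.19 for Trpm7, 0.22 for Mrs2 and 0.23 for Zdhhc17, against 0.50 for Mmgt1 and 0.88 for Nipa1.

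Loss of Bmal1 was examined by comparing the 12 mutants with the 12 controls over all time points. None of the 10 genes passed the test over all genes. Magt1 had the largest excess in mutants relative to its error, Nipa1 the largest deficit in size, and Trpm7 differed by less than its standard error. In edgeR's quasi-likelihood test with time point as a factor and Benjamini-Hochberg adjustment over 15493 genes, 42 genes had an adjusted p below 0.05 (0.271% of those tested) and 0 of the 10 members did. Below an unadjusted p of 0.05 were 6.95% of all genes and 1 of the 10 members, Magt1; DESeq2 and limma-voom also called 0 members. The median log2 fold change was 0.053 over the members and 0.0033 over all genes. No marker of endothelial cells, pericytes, microglia, astrocytes, oligodendrocytes, neurons or red blood cells was called between genotypes, and the summed microglial markers ranged from 679 to 17613 reads in controls and from 793 to 20880 in mutants. Unadjusted edgeR p was below 0.05 for 2 of 6 astrocyte, 2 of 6 oligodendrocyte and 3 of 5 red blood cell markers. Every marker of these types had a negative log2 fold change (-0.40 to -0.089, -1.08 to -0.16 and -0.46 to -0.27). Among the others, this p was below 0.05 for 4 of 12 endothelial markers (3 higher, 1 lower) and no pericyte, microglial or neuronal marker. The part of these shifts in the member values was not tested. In these bulk libraries, fewer cells of a type and less RNA per cell cannot be told apart.

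Magt1 (chromosome X, 105968084 to 106011906) encodes a subunit of the oligosaccharyltransferase that glycosylates proteins in the endoplasmic reticulum, and was described as a magnesium transporter because its loss lowers magnesium uptake in T cells. At ZT2 the controls had 208 and 253 reads and the mutants 338 and 390. At ZT6 they had 204 and 221 against 284 and 228, and at ZT10 219 and 170 against 369 and 274. At ZT14 the controls had 162 and 147 and the mutants 207 and 213. At these 4 time points both mutants lay above both controls, although at ZT14 genotype cannot be told apart from the sample numbers. At ZT18 the controls had 241 and 242 and the mutants 146 and 285, and at ZT22 191 and 322 against 276 and 306, so that the groups overlapped there. Of all genes tested, 1.16% had both mutants above both controls at 4 or more time points and below at none. The mean was 215 ± 47.2 reads in controls and 276 ± 70.4 in mutants (SD, n = 12 each), and the log2 fold change was 0.35 (SE 0.13, edgeR unadjusted p = 0.0101, adjusted p = 0.5004). Leaving out each mouse in turn kept it between 0.30 and 0.43. It was 0.17 (SE 0.15) with the i5 index as a covariate, 0.078 (SE 0.23) within the ZT6 and ZT18 libraries and 0.48 (SE 0.15) without them. Without the 3 libraries numbered apart it was 0.31 (SE 0.15, unadjusted p = 0.0471, edgeR adjusted p = 0.876).

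Tusc3 (chromosome 8, 39005845 to 39165114) encodes the subunit that takes the same place as MAGT1 in the oligosaccharyltransferase. It had 125 ± 41.5 reads in controls and 106 ± 25.2 in mutants (SD, n = 12 each), with a log2 fold change of -0.23 (SE 0.16, edgeR adjusted p = 0.850). This fold change ran from -0.27 to -0.13 with 1 mouse left out. It was -0.42 (SE 0.32) within the ZT6 and ZT18 libraries and -0.14 (SE 0.20) without them. Because either product can fill that position, the ratio of their reads was compared within each library, on log2 of reads with 0.5 added to each count. The log2 ratio of Magt1 to Tusc3 was 0.81 ± 0.39 in controls and 1.37 ± 0.41 in mutants (SD, n = 12 each). Mutants were higher by 0.56 in an exact permutation test of genotype within time points (two-sided p = 0.00283, adjusted p = 0.00849 over the 3 ratios of related genes tested). Both mutants were above both controls at ZT2, ZT6, ZT10 and ZT22, and the groups overlapped at ZT14 and ZT18. The members were chosen with earlier results of these data known, and only these 3 ratios were tested. The difference draws on the same reads as the comparisons of Magt1 and Tusc3 alone, in which neither gene was called.

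Whether this difference passed depended on the time points used. It lay between 0.51 and 0.65 with any 1 mouse left out, and was 0.61 without ZT6 and ZT18 (exact p = 0.00617, adjusted p = 0.0185). Without ZT14 and replicate 1 of the ZT2 controls, which leaves no library numbered apart, it was 0.62 (exact p = 0.00514, adjusted p = 0.0154). Over the 4 time points at which both genotypes carried the same i5 index it was 0.46 (exact p = 0.0540, adjusted p = 0.0810), and within ZT6 and ZT18 it was 0.46 (exact p = 0.222, where the smallest p the design allows is 0.0556). These last 3 comparisons were chosen after the data were seen. The part of the index in the difference was not tested beyond these values.

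**Figure D2:**
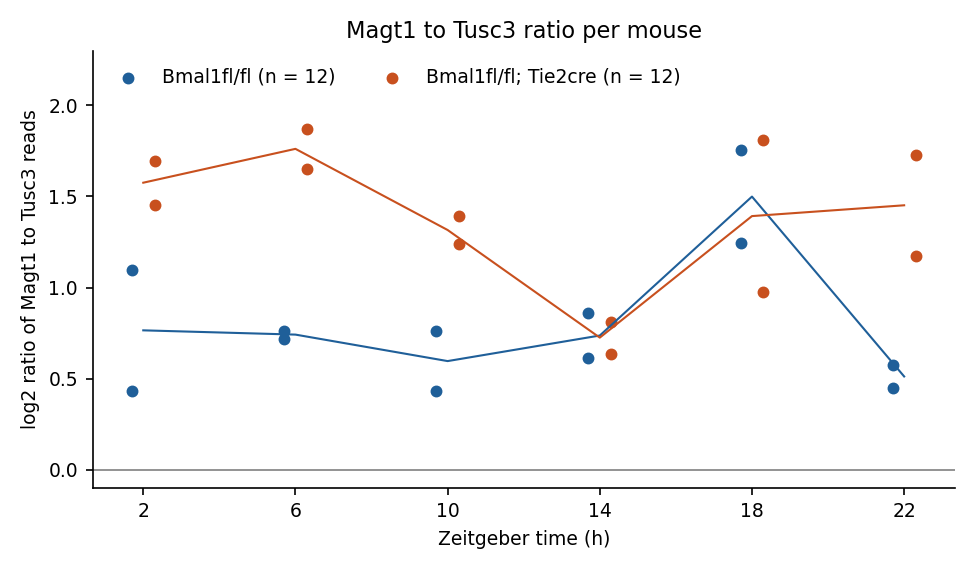
Log2 ratio of Magt1 to Tusc3 reads (0.5 added to each) against zeitgeber time in hours; each point is a mouse, and lines join the means of 2 mice per genotype. The mutants lie above the controls at ZT2, ZT6, ZT10 and ZT22, and both genotypes overlap at ZT14 and ZT18.

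The same comparison for the other related genes did not pass. The log2 ratio of Trpm7 to Trpm6 was 2.60 ± 0.47 in controls and 2.36 ± 0.48 in mutants (SD, n = 12 each; difference -0.24, exact permutation p = 0.108, adjusted p = 0.134). Among the alternatives run it passed only with replicate 2 of the ZT10 controls left out (difference -0.32). The log2 ratio of Nipa2 to Nipa1 was 0.54 ± 1.03 and 1.22 ± 1.12 (difference 0.68, exact permutation p = 0.134, adjusted p = 0.134). This difference ran from 0.43 to 0.86 with 1 mouse left out.

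Nipa1 (chromosome 7, 55977567 to 56019954) had from 20 to 141 reads in controls (median 79) and from 11 to 115 in mutants (median 57). Its control values were highest at ZT22, with 141 and 138 reads, where the mutants had 78 and 56. At ZT18 the controls also lay above the mutants, with 105 and 80 against 59 and 53, and at the other 4 time points the genotypes overlapped. The log2 fold change was -0.52 (SE 0.29, edgeR unadjusted p = 0.0858, adjusted p = 0.787). Nipa1 was the only member with both mutants below both controls at 2 time points and above at none; 12.5% of all genes tested had such a pattern at 2 or more. Nipa2, its neighbour on chromosome 7 (55931287 to 55962476), had 111 ± 30.2 reads in controls and 119 ± 31.9 in mutants (SD, n = 12 each), with a log2 fold change of 0.11 (SE 0.18). The exons of Nipa2 share 1316 bases with Cyfip1 on the opposite strand, which had a mean of 1583 reads, and how counting used the strand is not given in the sources used here, so the Nipa2 reads are uncertain.

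The remaining members had log2 fold changes between -0.068 and 0.17. Trpm7 had from 763 to 1213 reads in controls (median 962.5) and from 755 to 1064 in mutants (median 919), a log2 fold change of -0.068 (SE 0.084, edgeR adjusted p = 0.934). Trpm6 (chromosome 19, 18749983 to 18892511) had 166 ± 48.3 and 189 ± 54.8 reads (SD, n = 12 each; log2 fold change 0.17, SE 0.15). Both mutants exceeded both controls of Trpm6 at ZT14 (200 and 220 against 168 and 119) and at ZT22 (264 and 192 against 139 and 105), and the groups overlapped at the other 4 times; 13.6% of all genes tested had mutants above at 2 or more time points and below at none. Without the 3 libraries numbered apart, ZT14 mutants among them, the log2 fold change of Trpm6 was 0.078 (SE 0.17). It was 0.34 (SE 0.17) with the i5 index as a covariate and 0.020 (SE 0.21) within the ZT6 and ZT18 libraries. Mrs2 had 468.5 ± 86.5 and 483 ± 79.2 reads (log2 fold change 0.053, SE 0.10), and its exons share 2466 bases with Gpld1 on the opposite strand, which had a mean of 46.6 reads. Slc41a1 (chromosome 1, 131827493 to 131848865), a sodium-coupled magnesium exchanger of the plasma membrane, had 226 ± 42.8 and 225 ± 42.6 reads (log2 fold change -0.010, SE 0.13). Mmgt1 (chromosome X, 56585512 to 56598069), a membrane magnesium transporter that is also a subunit of the complex that inserts proteins into the endoplasmic reticulum membrane, had 161 ± 52.2 and 171.5 ± 45.9 reads (log2 fold change 0.076, SE 0.18). Zdhhc17 (chromosome 10, 110941780 to 111010140), a palmitoyltransferase for which magnesium transport has been described, had 301 ± 74.4 and 307.5 ± 36.8 reads (log2 fold change 0.053, SE 0.11). For Mrs2, Slc41a1, Mmgt1, Zdhhc17 and Nipa2 the sign of the fold change was not stable and turned in at least 1 alternative.

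**Figure D3:**
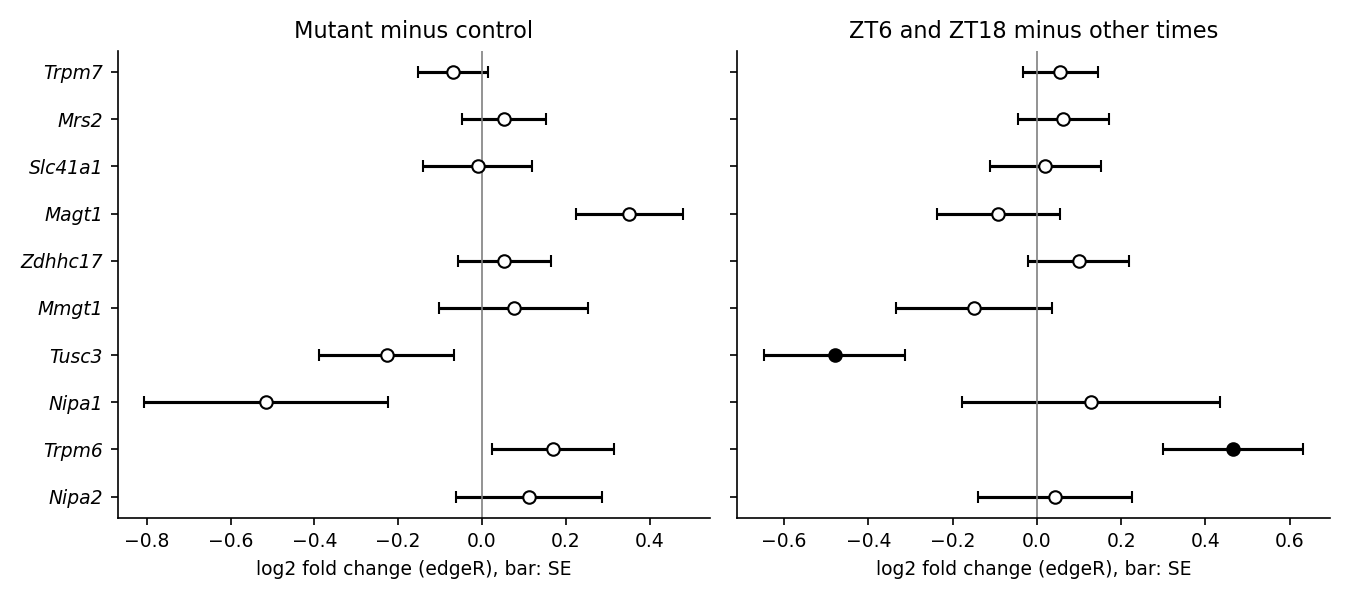
Log2 fold changes of the 10 genes (points) with standard errors (bars) from edgeR; the left panel shows mutants minus controls and the right panel ZT6 and ZT18 libraries minus the others, and filled points have an adjusted p below 0.05 over 15493 genes. No member is filled on the left, and Trpm6 (0.47) and Tusc3 (-0.48) are filled on the right.

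Whether the members cycle over the day was tested with meta2d, separately in each genotype; this method joins the p-values of a rank test (JTK_CYCLE) and of a Lomb-Scargle periodogram. Using the study's threshold of q below 0.6, 48 of 15493 genes (0.31%) were rhythmic in controls and 6 (0.0387%) in mutants, and none of the 10 members was in either. These counts moved with the processing, to 65 and 24 after TMM rescaling, to 47 and 45 among genes with 10 or more reads in every library, and to 0 to 82 and 0 to 24 with 1 mouse left out. All 10 members had q = 1 in both genotypes. Of 12 core clock genes, 3 had q below 0.6 in controls and 0 in mutants. An unadjusted p below 0.05 was reached by 2.43% of all genes in controls and 2.27% in mutants, and by 0 of the 10 members. The lowest member p in controls was that of Trpm7 (0.210), followed by Nipa1 (0.215), and the lowest in mutants was that of Mmgt1 (0.0760). The Trpm7 value in controls depended on the processing: it was 0.0461 after TMM rescaling, 0.0306 in an edgeR cosinor fit and 0.0425 in that fit with a replicate block, and ran from 0.00712 (without replicate 2 of ZT14) to 0.624 with 1 mouse left out. Nipa1 in controls ran from 0.0144 (without replicate 1 of ZT2) to 0.635 and Mmgt1 in mutants from 0.00075 (without replicate 2 of ZT10) to 0.289. These p-values are unadjusted, and none of the 3 genes reached q below 0.6 in these fits. In an edgeR fit with time point as a factor, Trpm7 in controls (q = 0.594) and Mmgt1 in mutants (q = 0.586) did, and Nipa1 in controls did not (q = 0.753). That fit brought 4989 of all genes in controls and 5585 in mutants under 0.6. The study described Trpm7 in the control libraries as a trend that was not significant. By quantitative PCR in other sorted cells of wild-type mice, which are not among these libraries, it reported Trpm7 to be rhythmic.

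The Trpm7 values of each mouse follow. At ZT2 the controls had 763 and 927 reads and the mutants 1064 and 893. At ZT6 they had 993 and 936 against 811 and 1049, and at ZT10 1173 and 971 against 988 and 755. At ZT14 the controls had 1213 and 907, and the mutants 917 and 860. Controls had 1026 and 1074 at ZT18 and 770 and 954 at ZT22, and mutants had 921 and 995, then 997 and 890. The mutant means were lowest at ZT10 (871.5) and highest at ZT2 (978.5), whereas control means were highest at ZT10 (1072) and lowest at ZT2 (845). Only at ZT18 did the genotypes not overlap, with both mutants below both controls. Each of the 10 members was separated in 1 direction or the other at 1 time point or more. The difference in rhythm between genotypes, tested in edgeR as the interaction of genotype with a 24-h cosine and sine, had an unadjusted p of 0.0293 for Trpm7 and an adjusted p of 1.00. An unadjusted p below 0.05 was found in 4.26% of all genes and in 1 of the 10 members, and 0 genes (0%) passed after adjustment (660 had an unadjusted p under 0.05, and DESeq2 called 1). Thus 0 of 12 core clock genes passed either, and 4 of them had an unadjusted p below 0.05. This edgeR p was 0.0116 for Cry1, 0.0886 for Nr1d2, 0.320 for Per3 and 0.828 for Nr1d1. Since the test called no clock gene, a member that did not pass is not shown to have the same rhythm in both genotypes. With 1 mouse left out in turn, the unadjusted p of Trpm7 stayed below 0.05 in 18 of 24 fits (range 0.0151 to 0.0934). It was 0.133 without TMM scaling, 0.167 without a filter, 0.0772 without ZT6 and ZT18 and 0.155 without the 3 libraries numbered apart. With DESeq2 it was 0.0297 and with limma-voom 0.0298. In edgeR it was 0.0252 with 10 or more reads in every library, 0.0336 with a replicate block and 0.0289 with the i5 index. None of these fits passed after adjustment (lowest adjusted p = 0.730).

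Cosine fits described the other members. In controls the largest relative amplitudes were those of Nipa1 (42.1% of the mean, fitted peak at ZT21.8) and Tusc3 (24.4%, ZT1.49), and the smallest that of Slc41a1 (5.06%). In mutants the largest were those of Mmgt1 (23.9%, fitted peak at ZT2.05), Trpm6 (21.6%, ZT21.1) and Magt1 (20.6%, ZT3.41). Nipa1 had a relative amplitude of 3.20% in mutants, and the edgeR test of its rhythm difference did not pass (unadjusted p = 0.356, adjusted p = 1.00). For the 9 members other than Trpm7 this unadjusted p lay between 0.208 and 0.859. Mrs2 had its lowest control reads at ZT14 (280 and 362), where the mutants, numbered apart, had 624 and 461. It was also separated in the other direction at ZT10 (471 and 547 against 428 and 436). With 2 mice per genotype, every member was separated at 1 time point or more. The share of all genes separated at a single time point was not computed.

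**Figure D4:**
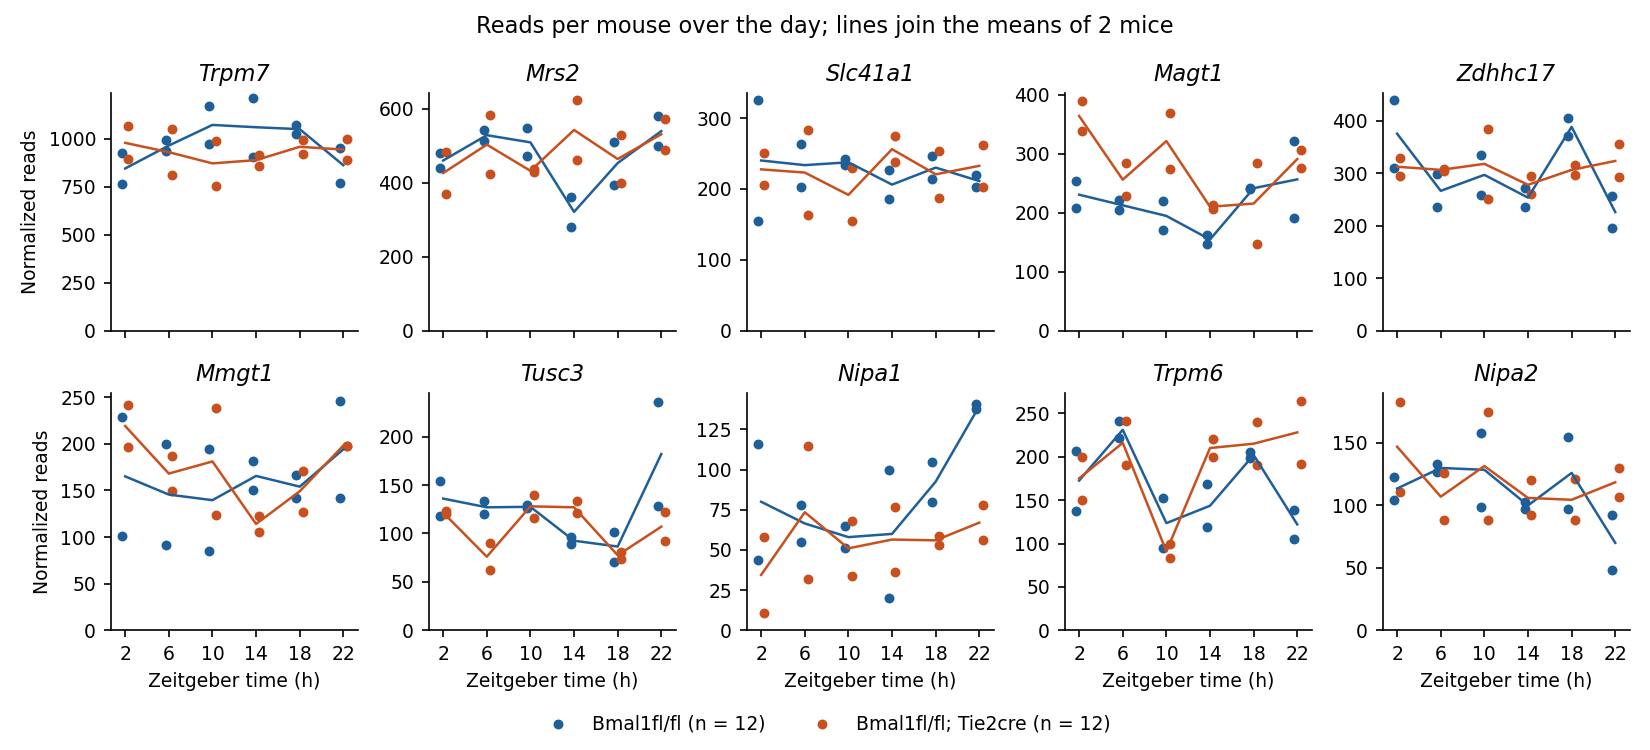
Normalized reads of the 10 genes against zeitgeber time in hours; each point is a mouse and lines join the means of 2 mice per genotype. Control and mutant means of Trpm7 run opposite to each other at ZT2 and ZT10, Magt1 is higher in mutants from ZT2 to ZT14, and Trpm6 lies between 190 and 241 in all 8 mice of ZT6 and ZT18, with mutants as high at ZT14 (200 and 220) and ZT22 (264 and 192).

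The libraries of ZT6 and ZT18 were compared with the other 16, because their marker reads stood apart. Trpm6 was higher and Tusc3 lower in them, and the other 8 members did not pass. The share of members called (2 of 10) is close to that of all genes, of which 16.7% had an adjusted p below 0.05. Below an unadjusted p of 0.05 were 26.8% of all genes and the same 2 members. Trpm6 had from 190 to 241 reads (median 213) in the 8 libraries of ZT6 and ZT18 and from 83 to 264 (median 151) in the others, so that the first group lay within the range of the second. The mutants of ZT14 and ZT22 lay as high as those of ZT6 and ZT18, with means of 210 and 228 against 216 and 215. The log2 fold change was 0.47 (SE 0.17, edgeR adjusted p = 0.0489). Tusc3 had from 62 to 134 reads (median 85.5) against 89 to 236 (median 122.5), and the ranges overlapped. Its log2 fold change was -0.48 (SE 0.17, edgeR adjusted p = 0.0436).

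Both calls lay at the threshold. With 1 library left out in turn, Trpm6 was called in 8 of 24 fits (adjusted p from 0.0226 to 0.104) and Tusc3 in 9 of 24 (0.0280 to 0.109), with the same sign in every fit. Neither was called within 1 genotype: the log2 fold change of Trpm6 was 0.61 in controls and 0.33 in mutants, and that of Tusc3 -0.34 and -0.61. The interaction with genotype had unadjusted p = 0.406 for each. In mutants the i5 index divides the same libraries, and no fit of this comparison held the index. With the replicate number as a block Trpm6 had a log2 fold change of 0.47 and an edgeR adjusted p of 0.0528, past the threshold. Without the 3 libraries numbered apart Tusc3 had a log2 fold change of -0.45 and an edgeR adjusted p of 0.0934. Summed markers of pericytes and smooth muscle ranged from 14781 to 23868 reads in these 8 libraries and from 9542 to 18594 in the others, neuronal markers from 68 to 136 against 169 to 938, astrocyte markers from 4544 to 7507 against 10379 to 20672, and oligodendrocyte markers from 2210 to 4458 against 5215 to 17961. Their part in the Trpm6 and Tusc3 values was not tested. Red blood cell markers lay between 1492 and 4895 against 2410 and 9014. Called lower were 7 of 7 microglial, 5 of 6 astrocyte, 6 of 6 oligodendrocyte, 7 of 7 neuronal and 5 of 5 red blood cell markers, and called higher 7 of 8 pericyte and 8 of 12 endothelial markers. Of the defining markers, Mog was at 0 in 12 libraries, Tubb3 in 7, Rbfox3 in 5, Mag in 4, Gad1 in 2, and Syt1 and Tagln in 1 each.

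Trpm7 and Trpm6 belong to a family of 8 channels, of which 5 were tested. Trpm3 had 22.5 reads per kb in controls and Trpm2, the lowest of those tested, 3.84, against 86.2 for Trpm7. In the ZT6 and ZT18 libraries Trpm2, a calcium channel gated by ADP-ribose and known from microglia, was lower by -4.65 on the log2 scale (SE 0.42, edgeR adjusted p = 2.00e-10) and Trpm3 by -1.71 (SE 0.24, adjusted p = 2.28e-06). Trpm7 differed there by 0.056 (SE 0.090, edgeR adjusted p = 0.769). Between genotypes 0 of the 5 were called.

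Of 22 other genes of magnesium handling, 15 were tested and 1 passed between genotypes, where 0.271% of all genes did: Cnnm2, a basolateral membrane protein needed for magnesium balance. Its reads ran from 83 to 376 (median 232.5) in controls and from 184 to 541 (median 413) in mutants. Both mutants exceeded both controls at 5 of 6 time points, ZT14 with its libraries numbered apart among them, and the groups overlapped at ZT6. Of all genes tested, 0.187% had mutants above at 5 or more and below at none. The mean was 225 ± 87.0 in controls and 391 ± 97.9 in mutants (SD, n = 12 each), with a log2 fold change of 0.85 (SE 0.17, edgeR adjusted p = 0.0116). The adjusted p was 0.0889 with the i5 index as a covariate (log2 fold change 0.94) and 0.864 within the ZT6 and ZT18 libraries (0.60). Without the 3 libraries numbered apart the call was also lost (log2 fold change 0.66, SE 0.17, edgeR adjusted p = 0.297). With 1 mouse left out it was called in 23 of 24 fits, and the adjusted p was 0.0561 without mutant replicate 2 of ZT6. The median log2 fold change of these 15 genes was 0.15, against 0.0033 over all genes.

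Among these genes Ptp4a2, a phosphatase that binds CNNM proteins, had the highest level per length (239 reads per kb in controls) and Cnnm1 the lowest of those tested (0.831). Its relative Ptp4a3 had the lowest p for a rhythm difference (unadjusted p = 0.00392, adjusted p = 1.00, edgeR). In the ZT6 and ZT18 libraries Arl15, a small GTPase that associates with CNNM proteins, was higher by 0.53 on the log2 scale (SE 0.13, edgeR adjusted p = 0.00404), and Egfr, whose ligand regulates TRPM6 in the kidney, was lower by -0.87 (SE 0.30, adjusted p = 0.0392). The Egfr call was lost with a replicate block (log2 fold change -0.85, edgeR adjusted p = 0.0523) and without TMM scaling (-0.81, adjusted p = 0.0548). It was also lost in controls alone (-0.69, adjusted p = 0.421) and in mutants alone (-1.06, adjusted p = 0.181). It held in 11 of 24 fits with 1 library left out. Arl15 was called in all 24 such fits and in mutants alone (adjusted p = 0.00504), and not in controls alone (0.459). In mutants the i5 index divides the same libraries, so index and time cannot be told apart there.

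The complexes that hold members had no called gene in these comparisons other than members. Of 12 subunits of the oligosaccharyltransferase, 0 were called between genotypes, and Magt1 was the only one with an unadjusted p under 0.05. The median log2 fold change was -0.0024. For ZT6 and ZT18, 1 of the 12, Tusc3, was called, against 16.7% of all genes, and its call held in 9 of 24 fits with 1 library left out. Rpn1, a subunit that both forms of the enzyme contain, had the highest level per length (206 reads per kb in controls) and Tmem258 the lowest (24.3). Of 10 subunits of the endoplasmic reticulum membrane complex, Mmgt1 included, 0 were called in any of the 3 edgeR comparisons. Emc2 had an unadjusted p of 0.0471 for ZT6 and ZT18 (log2 fold change 0.31), Emc3 the highest level per length (90.8) and Emc9 the lowest (13.6).

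Of 12 core clock genes, 5 passed between genotypes (1 higher and 4 lower in mutants). Nr1d2, a repressor that BMAL1 drives, had a mean of 639 reads in controls and 153 in mutants (log2 fold change -1.90, SE 0.21, edgeR adjusted p = 8.57e-06). Per3 and Nr1d1 were lower by -1.89 and -2.26 on the log2 scale (edgeR adjusted p = 4.18e-05 and 0.000659), and the repressor Cry1 was higher by 0.89 (0.000759). These 4 calls held in 24 of 24 fits with 1 mouse left out and without the 3 libraries numbered apart. Within ZT6 and ZT18, Per3 (log2 fold change -1.40, edgeR adjusted p = 0.318) and Cry1 (1.09, adjusted p = 0.0529) no longer passed. With the i5 index Cry1 did not pass either (log2 fold change 0.84, edgeR adjusted p = 0.0535). Per1 had the highest level per length of this list (174 reads per kb in controls) and Npas2 the lowest (13.4).

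The genes whose log2 normalized reads followed those of Trpm7 most closely over the 24 libraries, among 9895 with a mean of at least 50 reads, were Gm37238 (Pearson r = 0.76), Samhd1 (0.72), Zc3h15 (0.70), Parg (0.68) and Zfp24 (0.68). The 99th percentile of r over these genes was 0.54. Of the members, Nipa2 came closest (r = 0.44), Trpm6 had r = 0.15 and Mrs2 -0.32. The libraries share the time points and the marker levels described above, so these values are descriptions only.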

How the data were processed

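RNA from CD31-sorted brain endothelial cells of 24 mice was sequenced from strand-specific libraries (SMARTer Pico kit). The authors aligned reads to GRCm38 with STAR 2.5.3a, used SAMtools 1.3.1, counted reads on Ensembl release 91 genes with PORT, normalized the counts to similar totals and deposited whole-number counts; the original depth is not in them. The values in every library held every whole number from 1 to 100 and were treated as counts.

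Groups came from the sample labels. The members and gene lists were chosen with earlier results of these data known. A gene was tested if it reached 5 reads in 6 controls or in 6 mutants, the study's filter. Genotype, rhythm difference (2 degrees of freedom) and ZT6 and ZT18 against the rest were tested with edgeR 4.0.16 (TMM, quasi-likelihood) in R 4.3.3, adjusted by Benjamini and Hochberg over 15493 genes. Meta2d (period 24 h) was run from own code (Python 3.11.15, SciPy 1.17.1, NumPy 2.4.6). Both were run on simulated counts as a check of the code. Those counts had less spread than these data, so power here was not measured. Exon lengths and coordinates came from GENCODE M21 (GRCm38). Named genes were the 10 members; of each list of related genes, up to 4 with the smallest unadjusted p under 0.05 in the 3 edgeR tests plus the highest and lowest by level (marker lists are given by counts); the 5 genes most like Trpm7; and Arntl. Alternatives used DESeq2 1.42.0, limma-voom 3.58.1, other scalings and filters, the i5 index, a replicate block, subsets of time points and each mouse left out; 2 subsets for the ratios, and fits without the 3 libraries numbered apart, were added after the data were seen. Mice are separate animals, and the tests set differences against the variation between mice. The test of the order of levels pools the mice of all time points and takes exon lengths as exact.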

Additional observations from a re-analysis of the deposited data

How the results depend on the processing

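No member changed its call in the genotype or rhythm difference tests under any alternative run. The main rhythm difference test also called 0 of 12 core clock genes, so unchanged calls there do not show unchanged rhythms. The count of genes called between genotypes (42) was 99 with DESeq2, 141 without a filter, 7 with the i5 index as a covariate, 3 within ZT6 and ZT18, 9 without the 3 libraries numbered apart, and 25 to 68 with 1 mouse left out. The rhythm difference count (0) was 1 with DESeq2, 52 without a filter, 1 with the i5 index, 5 without ZT6 and ZT18, and 0 to 1 with 1 mouse left out. The ZT6 and ZT18 count (2595) was 1624 with 10 or more reads in every library, 1064 in controls alone, 1535 in mutants alone, and 2352 to 2714 with 1 mouse left out. Rhythmic genes in controls (48) numbered 133 by edgeR cosinor, 4989 by time point as a factor, 103 by cosinor with a replicate block, and 0 to 82 with 1 mouse left out; in mutants (6) they numbered 24 after TMM rescaling, 45 with 10 or more reads in every library, 30, 5585 and 23 by the same 3 edgeR fits, and 0 to 24 with 1 mouse left out. The factor fit brought Trpm7, Trpm6, Mrs2 and Zdhhc17 in controls and Trpm6, Magt1 and Mmgt1 in mutants under q of 0.6, with unadjusted p from 0.00771 to 0.202. The cause of these shifts was not tested, apart from the fewer samples or genes that some alternatives hold.

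Signs turned for small fold changes. Between genotypes Slc41a1 was 0.069 and Mmgt1 -0.097 with the i5 index, Zdhhc17 -0.046 and Nipa2 -0.25 within ZT6 and ZT18, without the 3 libraries numbered apart Mrs2 was -0.056 and Slc41a1 0.028, and with 1 mouse left out Mrs2 ran from -0.0053 to 0.084, Slc41a1 from -0.066 to 0.061 and Mmgt1 from -0.0047 to 0.13. For ZT6 and ZT18 against the rest, Slc41a1 was -0.020 with 10 or more reads in every library, Magt1 0.11 and Nipa1 -0.093 in controls, Nipa2 -0.21 in mutants, and with 1 mouse left out Slc41a1 ran from -0.037 to 0.081, Magt1 from -0.12 to 0.011, Nipa1 from -0.089 to 0.22 and Nipa2 from -0.029 to 0.11. Tusc3 was no longer called without TMM scaling (log2 fold change -0.44, edgeR adjusted p = 0.0768) or without the 3 libraries numbered apart (-0.45, adjusted p = 0.0934). Nor was Trpm6 with 10 or more reads in every library (log2 fold change 0.42, edgeR adjusted p = 0.0778). Neighbours told apart by level numbered 3 and became 8 on reads not divided by length. Of the 3 ratios 1 passed, and this became 0 over time points with 1 i5 index and 1 to 2 with 1 mouse left out. Within ZT6 and ZT18 the count was 0 by design, since no exact p there can be below 0.0556, and the Magt1 to Tusc3 difference was 0.46 against 0.56 over all time points.

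Replicate numbers follow the order of the sample numbers in the labels, and nothing there ties the same number in both genotypes to a shared litter or day. The paper reports independent experiments, and whether the replicate numbers mark them is not stated in the sources used here. Deviations of same-numbered mice correlated between genotypes by -0.0087 to 0.0149 over the 6 time points, so no pairing was seen in these values. With a replicate block the genotype test called 45 genes and gave Magt1 a log2 fold change of 0.35, and the Magt1 to Tusc3 ratio had an adjusted exact p of 0.0322. For ZT6 and ZT18 the block ended the calls of Trpm6 (log2 fold change 0.47, edgeR adjusted p = 0.0528) and Egfr (-0.85, adjusted p = 0.0523). The block changed no other call of a member in the edgeR tests.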
